A study of Mus musculus with 12 samples.

Results

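The 9 genes followed here serve class I antigen presentation: the peptide transporter genes Tap1 and Tap2, the tapasin genes Tapbp and Tapbpl, the trimming peptidase gene Erap1, the class I transactivator gene Nlrc5, and the endoplasmic reticulum (ER) chaperone genes Calr, Pdia3 and Canx. They were chosen by symbol for their roles, and all 9 were found among the 16516 gene symbols of the 4 deposited tables. Each of the 9 was listed in all 4 tables and had a mean normalized count of at least 10 in every comparison, so none was lost to the filter on low values.

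MHC class I molecules show short peptides at the cell surface to CD8 T cells and are read by NK cells. Peptides cut by the proteasome in the cytosol are pumped into the ER by the transporter TAP, a pair of ABC family subunits, and are trimmed there by the aminopeptidase ERAP1. New heavy chains fold with calnexin, then join beta-2-microglobulin, calreticulin, the disulfide isomerase ERp57 and tapasin, which holds them at TAP until a peptide of high affinity binds. In mouse macrophages interferons, which STING signalling elicits, are known to raise class I genes, and NLRC5 is the transactivator that acts at their promoters.

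The study asked how macrophages without MGMT, a protein that removes alkyl groups from guanine in DNA, answer the STING agonist DMXAA. Bone marrow-derived macrophages (BMMs) of mice were treated for 24 h, and strand-specific mRNA libraries were sequenced. The 4 groups were MGMT KO BMMs with DMXAA (KO DMXAA), wild-type BMMs labelled WTfl/fl with DMXAA (WT DMXAA), MGMT KO BMMs with the vehicle DMSO (KO DMSO), and WTfl/fl BMMs with DMSO (WT DMSO), with 3 libraries each. The design text gives the DMXAA dose as 10 mg/ml. A Cre driver, the age and the sex of the mice are not given in the sources used here. All 12 libraries carry 1 batch label. Whether the 3 samples of a group came from separate mice is not given in the labels, so p-values measure only the spread between these samples, which may be technical.

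Depth was 94.1 to 98.1 M reads in listed genes for KO DMXAA, 85.1 to 92.5 for WT DMXAA, 79.9 to 92.4 for KO DMSO and 79.5 to 93.9 for WT DMSO. Mgmt itself was lower in KO but not absent, at 46.7 ± 13.4 normalized counts in KO against 99.9 ± 14.8 in WT under DMXAA (SD, n = 3 each). Under DMSO it was at 142 ± 31.5 in KO against 250.2 ± 18.1 in WT, and limma called both differences (adjusted p = 9.05e-03 and 5.66e-03). The summed level of 8 macrophage markers was 9396 to 9485 reads per M in KO DMXAA, 11477.5 to 11719 in WT DMXAA, 16736 to 17543 in KO DMSO and 20594 to 21044 in WT DMSO. Of its genes, Lyz2 was lower in KO by log2 -0.87 under DMXAA and -0.66 under DMSO (adjusted p = 1.46e-07 and 2.75e-05 in limma), whereas Adgre1, at -0.07 and -0.03, and Csf1r, at 0.10 and 0.08, were not called. Neutrophil markers summed to at most 7.75 reads per M in any library, with Elane not listed, and the dendritic, B, T and NK, and stromal cell markers each to at most 6.71, with Ighm, Cd3d, Cd8a and Trac among those not listed. Dendritic cell markers summed to 5.51 to 6.71 in KO DMXAA and 5.73 to 5.80 in WT DMXAA, against 0.586 to 0.689 in KO DMSO and 0.277 to 1.02 in WT DMSO. Their part in the results below was not tested. In bulk RNA, fewer cells of a type and less RNA per cell cannot be told apart.

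Per length of exon, the 9 genes spanned a wide range, and their order differed between vehicle and DMXAA. Levels between genes are given as reads per kb of exon per M reads (RPKM), computed from the reads. Under DMXAA the order in both genotypes was Tapbp, Calr, Tap1, Pdia3, Canx, Tap2, Tapbpl, Nlrc5 and Erap1. Tapbp stood at 268 ± 1.89 RPKM in KO DMXAA and 308 ± 6.69 in WT DMXAA (SD, n = 3 each), above all other members. Erap1, the lowest, stood at 9.19 ± 0.417 and 10.0 ± 0.388. Under DMSO the 3 chaperone genes came first: Calr at 152 ± 0.675 RPKM in KO and 165 ± 2.14 in WT, Canx at 147 ± 8.33 and 133 ± 8.69, and Pdia3 at 106 ± 4.94 and 109 ± 3.29. Then came Tapbp, Tap1, Tap2, Erap1 and Tapbpl, and Nlrc5 was last at 2.42 ± 0.099 RPKM in KO and 3.08 ± 0.234 in WT. Neighbours in the order whose libraries overlapped were Pdia3 with Canx and Nlrc5 with Erap1 in KO DMXAA, and Calr with Canx in KO DMSO. In both WT groups no neighbours overlapped.

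**Figure D1:**
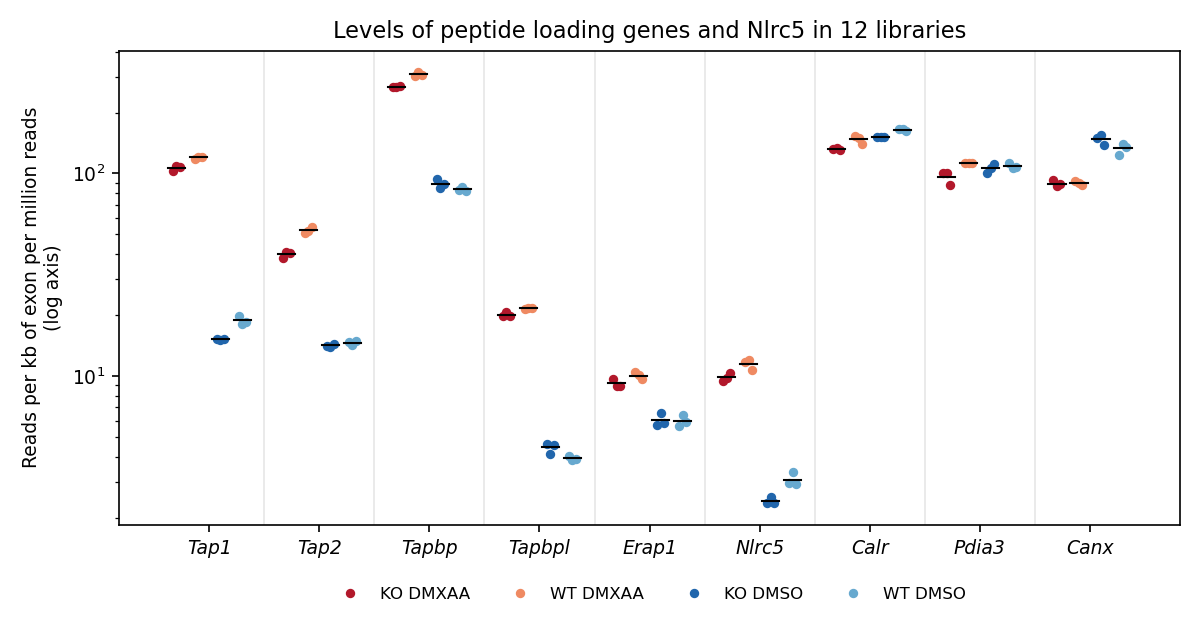
Level of each member (RPKM, log axis) in each of the 12 libraries, by group, with a bar at the mean of 3 libraries. The 6 DMXAA libraries lie above the 6 DMSO libraries for Tap1, Tap2, Tapbp, Tapbpl, Erap1 and Nlrc5. On this scale Canx lies lower under DMXAA, at 89.0 against 147 in KO and 89.4 against 133 in WT. Calr also lies lower, at 132 against 152 in KO and 148 against 165 in WT. Pdia3 lies at 96.5 against 106 in KO and 113 against 109 in WT.

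Under DMXAA the transporter, tapasin, peptidase and transactivator genes rose in both genotypes, and Canx fell. Calr and Pdia3 rose by little on the deposited scale, and with the same total per library Calr was lower in both genotypes, at -0.20 in KO and -0.16 in WT, and Pdia3 was at -0.14 in KO and 0.06 in WT with neither called. Tap1 rose the most, 9.19-fold in KO and 7.95-fold in WT, and Erap1 the least of the first 6, 1.99-fold and 2.08-fold. In each genotype 8 of the 9 members were called higher and 1 lower at a limma adjusted p below 0.05, where the calls over all tested genes were 33.7% higher and 32.9% lower in KO, and 31.7% higher and 31.1% lower in WT. The members' median log2 change was 1.88 in KO and 2.16 in WT, against -0.00 for all tested genes in each. The libraries of the treatments did not overlap for any of the 9 in either genotype, as was so for 71% of all tested genes in KO and 68.8% in WT. Folds and limma tests between groups below are on normalized counts within 1 table, and log2 changes are of normalized count plus 1. Tests of a difference in response between genotypes join the DMSO and DMXAA tables. Read ratios and their permutation tests use the reads.

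Tap1 (chromosome 17, 34187553 to 34197225, plus strand, GRCm38) encodes a subunit of the TAP transporter. In KO, Tap1 was at 58443, 62012 and 61814 normalized counts under DMXAA, against 6603, 6479 and 6752 under DMSO. In WT, Tap1 was at 62932, 65189 and 64963 under DMXAA, against 8599.5, 7724.5 and 7961 under DMSO. Every DMXAA library lay far above every DMSO library of its genotype, and the 3 libraries of each group lay close together. The log2 change was 3.20 (SE 0.041, limma adjusted p = 1.22e-12) in KO and 2.99 (SE 0.049, adjusted p = 2.33e-11) in WT. It ranked 326 of 12704 tested genes by size in KO and 318 of 12752 in WT.

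Tap1 begins head to head with Psmb9, which encodes an immunoproteasome subunit, and the genes share the stretch between their starts. That stretch is shown because 1 promoter region serves a transporter gene and a proteasome gene that both rose. The RefSeq starts (GRCm38.p6) are 226 bases apart, and the 225 bases before the Tap1 start, chr17:34187331-34187555 on the plus strand, read as follows, with a CCAAT box and the core letters TGACG of the cAMP response element in capitals.
Tap1: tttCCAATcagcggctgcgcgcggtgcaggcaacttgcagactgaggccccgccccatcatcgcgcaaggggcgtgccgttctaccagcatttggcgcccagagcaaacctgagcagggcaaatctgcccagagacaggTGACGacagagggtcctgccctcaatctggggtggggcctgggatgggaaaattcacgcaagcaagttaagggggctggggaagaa
The region was searched on both strands, over the 250 bases before each start, for GAAA and GAAA with 2 bases between (core of the interferon-stimulated response element, ISRE), TTCNNNGAA (the STAT site GAS), CCAAT and TGACG. RefSeq promoters were matched for 6 members (Tap1, Tapbp, Erap1, Calr, Pdia3 and Canx). The ISRE letters occurred in none of the 6 and in 2.98% of all 32851 promoters, and the GAS letters in none of the 6 and in 7.02% of all. CCAAT occurred in 5 of the 6, all but Erap1, and in 33.8% of all promoters, and TGACG in Tap1, Pdia3 and Canx and in 17.8% of all. B2m, the class I light chain gene, held the ISRE letters, and Psmb8, another immunoproteasome gene, the GAS letters. These matches describe the letters of the windows only.

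Tap2 (chromosome 17, 34203527 to 34216321, plus strand), the gene of the partner subunit, lies downstream of Tap1 beyond Psmb8. In KO, Tap2 was at 14978, 16173 and 15933 normalized counts under DMXAA, against 4238, 4126 and 4404 under DMSO. In WT, Tap2 was at 18746, 19306 and 20336 under DMXAA, against 4419, 4203 and 4421 under DMSO. The treatments stood far apart in both genotypes, beside a narrow spread within each group. The log2 change was 1.88 (SE 0.049, limma adjusted p = 1.99e-10) in KO and 2.16 (SE 0.050, adjusted p = 1.90e-10) in WT, a 3.69-fold and a 4.48-fold increase.

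Tapbp (chromosome 17, 33915899 to 33929292, plus strand) encodes tapasin, the bridge between TAP and the empty class I molecule. In KO, Tapbp was at 100373, 101103 and 102502 normalized counts under DMXAA, against 26919.6, 24134.5 and 25890.4 under DMSO. In WT, Tapbp was at 106829, 112939 and 109116 under DMXAA, against 23689, 24222 and 23482 under DMSO. The rise was 3.95-fold in KO (log2 1.98, SE 0.045, limma adjusted p = 6.87e-11) and 4.61-fold in WT (log2 2.20, SE 0.040, adjusted p = 3.94e-11). Tapbp overlaps Zbtb22 on the same strand, which had a mean of 1011 reads per library.

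Tapbpl (chromosome 6, 125223933 to 125231860, minus strand) encodes TAPBPR, a tapasin relative that edits peptides away from TAP. In KO, Tapbpl was at 4777, 5073 and 4881 normalized counts under DMXAA, against 862, 763 and 869 under DMSO. In WT, Tapbpl was at 4888, 5015 and 4996 under DMXAA, against 752, 705 and 723 under DMSO. Its level was lower than that of Tapbp and its fold larger: it rose 5.91-fold in KO (log2 2.56, SE 0.067, limma adjusted p = 2.29e-10) and 6.83-fold in WT (log2 2.77, SE 0.058, adjusted p = 1.04e-10). Within a library, the ratio of Tapbp to Tapbpl reads was 20.65 ± 0.622 in KO DMXAA and 30.9 ± 0.967 in KO DMSO, and 22.1 ± 0.387 in WT DMXAA and 32.8 ± 1.46 in WT DMSO (SD, n = 3 each). The ratio did not overlap between the treatments in either genotype, and the exact permutation test gave p = 0.1 for each, the smallest it can give with 3 against 3. This and the other ratios of reads were chosen after their values were seen.

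Erap1 (chromosome 13, 74639568 to 74693201, plus strand), the ER aminopeptidase gene, had the smallest rise of the first 6 members. In KO, Erap1 was at 7271, 6812 and 6809.7 normalized counts under DMXAA, against 3318, 3754 and 3438 under DMSO. In WT, Erap1 was at 7358, 7223 and 6904 under DMXAA, against 3277, 3642 and 3400.5 under DMSO. The groups stood well apart, and the log2 change was 0.99 (SE 0.058, limma adjusted p = 1.37e-07) in KO and 1.06 (SE 0.057, adjusted p = 1.23e-07) in WT. The end of Erap1 overlaps that of Cast on the other strand, which had a mean of 56635 reads per library. Whether the authors counted by strand is not given in the sources used here, so reads of the shared end cannot be told apart.

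Nlrc5 (chromosome 8, 94434356 to 94527272, plus strand) encodes the class I transactivator, a NOD-like receptor family protein that acts with the RFX factors at class I promoters. In KO, Nlrc5 was at 8299, 8672 and 9156 normalized counts under DMXAA, against 1590.6, 1686.5 and 1619 under DMSO. In WT, Nlrc5 was at 9675, 10062 and 8947 under DMXAA, against 1997, 2215.5 and 1948 under DMSO. It rose 5.34-fold in KO (log2 2.41, SE 0.055, limma adjusted p = 7.16e-11) and 4.66-fold in WT (log2 2.22, SE 0.067, adjusted p = 1.55e-09).

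The chaperone genes serve glycoproteins of many kinds as well as class I, and their changes under DMXAA were small on the deposited scale. Calr (chromosome 8, 84841850 to 84846934, minus strand) encodes calreticulin, the soluble lectin of the loading complex. In KO, Calr was at 39234, 40272 and 39463 normalized counts under DMXAA, against 34494, 34246 and 35318 under DMSO. In WT, Calr was at 42964, 42351 and 39731 under DMXAA, against 37969.6, 37134.5 and 36806 under DMSO. The groups were close but did not overlap, and the log2 change was 0.19 (SE 0.036, limma adjusted p = 7.89e-04) in KO and 0.16 (SE 0.044, adjusted p = 9.64e-03) in WT.

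Pdia3 (chromosome 2, 121413775 to 121438687, plus strand) encodes ERp57, which bonds to tapasin by a disulfide. In KO, Pdia3 was at 32624, 33009 and 28900.2 normalized counts under DMXAA, against 25196.5, 26123 and 28073 under DMSO. In WT, Pdia3 was at 34504, 34892 and 34832 under DMXAA, against 27914, 25916 and 26709 under DMSO. The lowest KO library under DMXAA lay nearer to the highest vehicle library than to its own group. The log2 change was 0.25 (SE 0.060, limma adjusted p = 3.78e-03) in KO and 0.37 (SE 0.042, adjusted p = 3.29e-05) in WT.

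Canx (chromosome 11, 50293961 to 50325673, minus strand) encodes calnexin, the membrane-bound relative of calreticulin, and was the member that fell. In KO, Canx was at 44823, 42316 and 43268 normalized counts under DMXAA, against 55661, 56830.5 and 52281.5 under DMSO. In WT, Canx was at 41609, 41348 and 40355 under DMXAA, against 45841, 51397 and 49811 under DMSO. The log2 change was -0.34 (SE 0.044, limma adjusted p = 5.92e-05) in KO and -0.25 (SE 0.049, adjusted p = 1.30e-03) in WT. Within a library, the ratio of Canx to Calr reads was 1.10 ± 0.046 in KO DMXAA and 1.58 ± 0.093 in KO DMSO, and 0.987 ± 0.025 in WT DMXAA and 1.31 ± 0.094 in WT DMSO, with no overlap between treatments and an exact permutation p = 0.1 in each genotype.

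The promoters of these lectin chaperones are shown because both hold the letters of the ER stress element. The letters CCAAT and CCACG with 9 bases between, which include a CCAAT box, occurred in the 250 bases before the start of 37 of 32851 RefSeq promoters, or 0.113%, and in 2 of the 6 members matched. The 200 bases before each RefSeq start are chr8:84846932-84847131 for Calr and chr11:50325674-50325873 for Canx, both read on the minus strand, with the element in capitals. It lies on the other strand in Calr, from base -162 to -144, and as written in Canx, from base -145 to -127.
Calr: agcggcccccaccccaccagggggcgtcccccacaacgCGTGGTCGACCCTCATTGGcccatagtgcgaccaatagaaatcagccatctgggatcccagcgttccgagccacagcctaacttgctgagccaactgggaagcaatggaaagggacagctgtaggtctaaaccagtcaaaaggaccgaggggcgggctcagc
Canx: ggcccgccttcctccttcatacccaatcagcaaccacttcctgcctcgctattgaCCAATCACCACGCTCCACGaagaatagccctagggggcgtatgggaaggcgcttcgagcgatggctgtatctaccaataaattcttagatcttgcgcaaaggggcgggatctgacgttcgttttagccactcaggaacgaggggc

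The scale of the counts matters for the chaperones. The deposited scaling puts the median log2 change of all genes at -0.00. With every library brought to the same total instead, that median became -0.39 in KO and -0.32 in WT. On that scale Calr was lower under DMXAA, by log2 -0.20 in KO (limma adjusted p = 3.49e-04) and -0.16 in WT (adjusted p = 9.30e-03), which is still above the median of all genes. Pdia3 was at -0.14 in KO and 0.06 in WT, called in neither. Canx fell further on that scale, by log2 -0.73 in KO and -0.57 in WT. With the same upper quartile, where the median of all genes was -0.15 in KO and -0.13 in WT, Calr was at 0.05 and 0.03, called in neither, and Pdia3 at 0.10 in KO, not called, and 0.25 in WT, called. Of the genes called, the share that was higher was 50.6% in KO and 50.5% in WT on the deposited scale, 36.8% and 37.4% with the same upper quartile, and 20.3% and 22.4% with the same total. The 6 genes from Tap1 to Nlrc5 were higher, and Canx lower, in both genotypes on every scale tried.

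**Figure D2:**
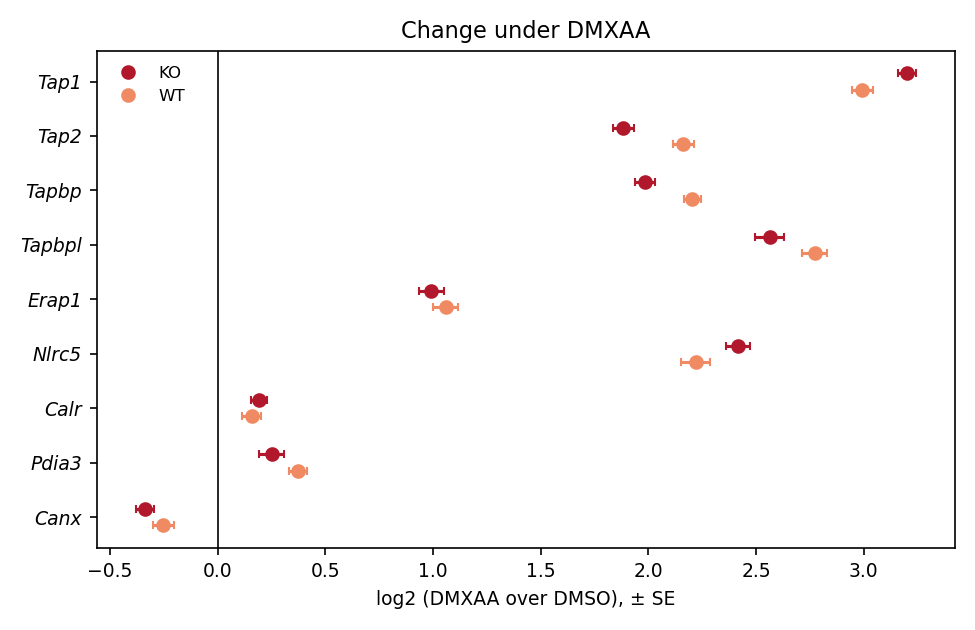
Log2 change of each member under DMXAA over DMSO in KO and WT, with bars of 1 SE of the limma fit (3 libraries per group). Tap1 is farthest right at 3.20 in KO and 2.99 in WT, Calr and Pdia3 lie just right of 0 on this deposited scale, left of it with the same total per library (except Pdia3 in WT), and Canx lies left of 0.

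Under DMXAA, 5 of the 9 members were lower in KO than in WT and none was higher, where 10.8% of all tested genes were called lower and 10.7% higher. The differences were small beside the response to DMXAA: the largest, that of Tap2, was log2 -0.35. The members' median was -0.13, against -0.00 for all tested genes. The libraries of the genotypes did not overlap for 6 of the 9, and for 37.6% of all tested genes. Of all genes called, 49.7% were higher in KO on the deposited scale and 34.3% with the same total per library. Values here are from the table of DMXAA libraries, whose scale differs from those above.

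Tap2 was at 13425, 14456 and 14246 normalized counts in KO, against 17333, 17744 and 18743 in WT. All 3 KO libraries were lower, and the log2 difference was -0.35 (SE 0.045, limma adjusted p = 3.06e-04). Tapbp was at 89969, 90369 and 91649 in KO, against 98774, 103804 and 100565 in WT (log2 -0.16, SE 0.033, adjusted p = 6.50e-03). Tap2 and Tapbp were the members called without each library in turn. Tap1 was at 52385, 55428 and 55269 in KO, against 58187, 59917 and 59872 in WT (log2 -0.13, SE 0.035, adjusted p = 2.78e-02). Nlrc5 was at 7439, 7752 and 8187 in KO, against 8945, 9248 and 8246 in WT (log2 -0.18, SE 0.054, adjusted p = 4.01e-02), so its highest KO library nearly met its lowest WT library. Pdia3 was at 29242, 29504 and 25840.3 in KO, against 31903, 32069.6 and 32102.5 in WT, with 1 KO library well below the other two (log2 -0.19, SE 0.050, adjusted p = 2.21e-02). The Tap1, Nlrc5 and Pdia3 calls were each lost in 4 of the 6 fits that leave out 1 library. For Tap1 these were the fits without replicate 2 or 3 of WT or 1 or 3 of KO (adjusted p up to 9.41e-02), for Nlrc5 without replicate 1 or 2 of either genotype (up to 1.46e-01), and for Pdia3 without any 1 WT replicate or replicate 3 of KO (up to 6.43e-02).

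Of the 4 members not called under DMXAA, Calr averaged 35483 ± 449 normalized counts in KO against 38422 ± 1613 in WT (SD, n = 3 each), a log2 difference of -0.11 (limma adjusted p = 6.01e-02) without overlap. The authors' deposited table gives Calr -0.11 as well, with an adjusted p of 3.06e-02. Tapbpl, at -0.06 (adjusted p = 3.99e-01), Erap1, at -0.08 (2.55e-01), and Canx, at 0.04 (5.20e-01), overlapped between the genotypes.

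Under DMSO, 3 of the 9 members were lower in KO than in WT and none was higher, where 9.58% of all tested genes were called lower and 7.04% higher. The 3 were Tap1, Nlrc5 and Calr, which were also the 3 whose libraries did not overlap, as was so for 34.7% of all tested genes. The members' median difference was -0.06, against 0.01 for all tested genes. Tap1 was at 7185, 7076 and 7333 normalized counts in KO, against 9633, 8666 and 8908 in WT (log2 -0.33, SE 0.056, limma adjusted p = 2.09e-03). Nlrc5 was at 1731, 1842 and 1758.5 in KO, against 2237, 2485 and 2179.9 in WT (log2 -0.37, SE 0.071, adjusted p = 4.76e-03). Both stood apart by more than the spread within either group, and both calls held without each library in turn. Calr was at 37534, 37396.5 and 38359.8 in KO, against 42533, 41659.8 and 41182 in WT (log2 -0.15, SE 0.044, adjusted p = 4.19e-02), and its call was lost in all 6 fits that leave out 1 library (adjusted p = 6.54e-02 to 1.45e-01).

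The other 6 members overlapped between the genotypes under DMSO. Tap2 averaged 4633 ± 140.2 normalized counts in KO against 4871 ± 135 in WT (log2 -0.07, limma adjusted p = 4.31e-01), so Tap1 was called without its partner. Tapbp was at log2 0.07 (adjusted p = 4.40e-01), Tapbpl at 0.15 (2.60e-01), Erap1 at -0.02 (9.10e-01), Pdia3 at -0.06 (4.83e-01) and Canx at 0.12 (1.71e-01). The WT libraries had the higher summed macrophage and neutrophil markers under both treatments. The macrophage sum does not stand for all its genes. Lyz2 was lower in KO, at log2 -0.66 under DMSO and -0.87 under DMXAA. Adgre1, at -0.03 and -0.07, and Csf1r, at 0.08 and 0.10, were not called. The part of these marker differences in the genotype differences of the members was not tested.

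**Figure D3:**
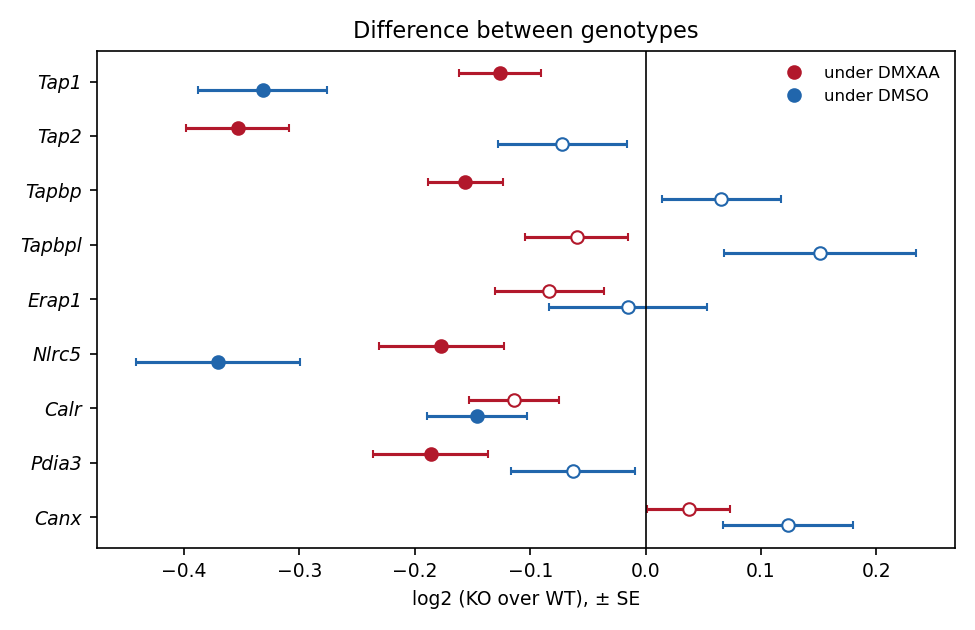
Log2 difference of KO over WT for each member under DMXAA and under DMSO, with bars of 1 SE of the limma fit (3 libraries per group); filled points passed a limma adjusted p below 0.05. Tap1 and Nlrc5 lie farther left under DMSO, at -0.33 and -0.37, and Tap2 farther left under DMXAA, at -0.35.

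The response to DMXAA itself differed between the genotypes for 2 of the 9 members, both smaller in KO, where 3.24% of all tested genes were called with a lower and 5.37% with a higher response in KO. Tap2 rose less in KO by log2 -0.28 (SE 0.066, limma adjusted p = 1.58e-02), a call held without each library in turn. Tapbp rose less in KO by log2 -0.22 (SE 0.057, adjusted p = 2.71e-02). The Tapbp call was lost in 6 of the 12 fits that leave out 1 library, those without WT DMSO replicate 3, WT DMXAA replicate 2, or replicate 1 or 3 of KO DMSO or 1 or 2 of KO DMXAA (adjusted p = 5.21e-02 to 7.44e-02). Tap1 differed the other way, by 0.21 (SE 0.062, adjusted p = 5.53e-02), as did Nlrc5, by 0.19 (adjusted p = 2.14e-01), and neither was called. Tap1 was called without WT DMSO replicate 2 (adjusted p = 3.71e-02) and without KO DMXAA replicate 1 (4.85e-02). The others were at -0.21 for Tapbpl, -0.12 for Pdia3, -0.09 for Canx, -0.07 for Erap1 and 0.03 for Calr, with adjusted p-values of 1.50e-01 to 8.00e-01. Tapbpl was called with a smaller response in KO with the same total per library (-0.28, adjusted p = 3.91e-02) and without KO DMSO replicate 2 (-0.27, 4.98e-02). The members' median was -0.09, against 0.00 for all tested genes. Of all genes called, 62.4% had the larger response in KO on the deposited scale and 39.2% with the same total.

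The ratio of reads of the TAP subunit genes, chosen after its values were seen, differed between treatments and between genotypes in these libraries. The ratio of Tap1 to Tap2 reads within a library, which needs no scaling between libraries, was 3.90, 3.83 and 3.88 in KO DMXAA, against 3.36, 3.38 and 3.19 in WT DMXAA. It was 1.56, 1.57 and 1.53 in KO DMSO, against 1.95, 1.84 and 1.80 in WT DMSO. The ratio was thus higher in KO under DMXAA and lower in KO under DMSO, with no overlap in either. Per length of exon, the ratio of Tap1 to Tap2 was 2.67 ± 0.024 in KO DMXAA, 2.29 ± 0.069 in WT DMXAA, 1.07 ± 0.013 in KO DMSO and 1.29 ± 0.052 in WT DMSO (SD, n = 3 each). The log2 difference of KO over WT in the ratio was 0.23 under DMXAA and -0.26 under DMSO, with an exact permutation p = 0.1 for each, the smallest 3 against 3 can give. Leaving out each library in turn gave 0.20 to 0.24 and -0.28 to -0.23.

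**Figure D4:**
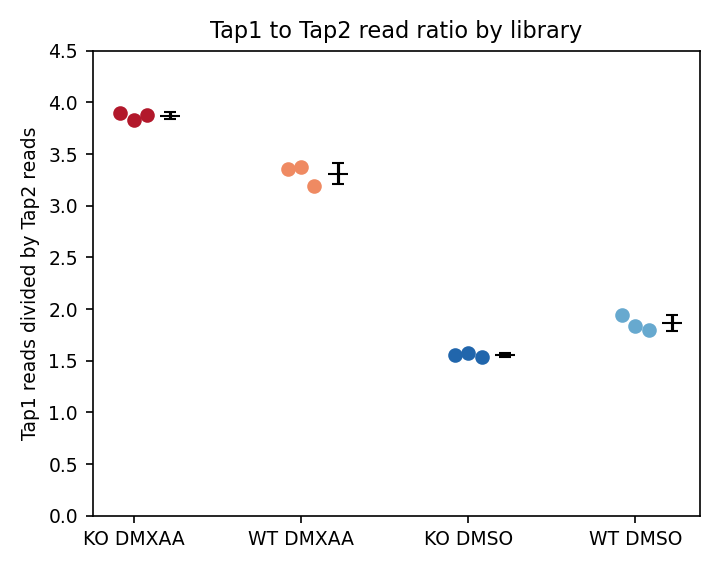
Ratio of Tap1 to Tap2 reads in each of the 12 libraries, by group, with the mean and 1 SD of 3 libraries beside the points. The KO libraries lie above the WT libraries under DMXAA, near 3.87 against 3.31, and below them under DMSO, near 1.55 against 1.86.

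Read against the genes between and beside them on chromosome 17, the TAP genes had changes of different size. Along the plus strand the order is Psmb9, Tap1, Psmb8 and Tap2. Psmb9 rose by log2 2.60 in KO and 2.64 in WT, Psmb8 by 2.37 and 2.35, and neither was called in the interaction (limma adjusted p = 8.21e-01 and 9.35e-01). Psmb9 overlaps Tap1 on the other strand, and with the use of strand in counting not given, reads of the shared stretch cannot be told apart. The ratio of Tap1 to Psmb9 reads was 4.35 ± 0.032 in KO DMXAA and 4.31 ± 0.141 in WT DMXAA, and 2.87 ± 0.142 in KO DMSO and 3.37 ± 0.158 in WT DMSO (SD, n = 3 each). It overlapped between genotypes under DMXAA (exact permutation p = 0.8) and did not under DMSO (p = 0.1). The ratio of Tap2 to Psmb8 reads was 0.610 ± 0.0066 in KO DMXAA and 0.718 ± 0.034 in WT DMXAA (exact permutation p = 0.1), and 0.855 ± 0.027 in KO DMSO and 0.818 ± 0.085 in WT DMSO (p = 0.7). Beyond Tap2, H2-Ob was at -0.87 in KO (limma adjusted p = 1.51e-01) and -1.68 in WT (1.36e-02). The class II gene H2-Ab1, which lies after H2-Ob, rose by 1.62 in KO and 1.60 in WT.

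Other genes of the class I pathway were read from lists, each by its calls over all tested genes and its median. All list values are on the deposited scale, and the lists were not read on the other scales. With the same total per library the median of all tested genes was -0.39 in KO and -0.32 in WT. Small rises and falls in the lists therefore depend on the scale. The list of class I heavy chains and B2m, the molecules that are loaded, held 17 tested genes, and 17 of 17 rose in each genotype. Among all tested genes 33.7% rose in KO and 31.7% in WT. The list's median log2 change was 2.90 in KO and 2.77 in WT. H2-T22 rose by 4.19 in KO and 4.18 in WT, and H2-K1, a classical heavy chain, by 2.37 and 2.26. Reads of these near-identical genes may be split among them by the authors' counting. Under DMSO 10 of the 17 were lower in KO than in WT and none higher, where 9.58% of all tested genes were lower and 7.04% higher, and B2m was among the 10 at -0.45 (limma adjusted p = 1.60e-04). Under DMXAA 6 were lower, where 10.8% of all tested genes were, and B2m was at 0.06 (adjusted p = 4.62e-01). B2m rose more in KO, by 0.52 (adjusted p = 9.12e-04), as did H2-Q6 and H2-T24, in the opposite direction to Tap2 and Tapbp.

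All 5 immunoproteasome and PA28 genes, which make the peptides that TAP carries, rose in both genotypes, with a median of 2.43 in KO and 2.42 in WT, and none was called in the interaction. Their 3 constitutive counterparts rose by a median of 0.60 in KO and 0.47 in WT. Of 10 tested peptidase genes, which trim or destroy peptides outside the ER, 2 rose and 4 fell in KO, and 1 rose and 7 fell in WT. Their medians were -0.08 and -0.21. Over all tested genes, 33.7% rose and 32.9% fell in KO, and 31.7% rose and 31.1% fell in WT. Lnpep, the endosomal aminopeptidase IRAP and a relative of Erap1, rose by 1.07 in KO and 1.17 in WT, and Blmh, a cytosolic peptidase, fell, at -1.04 in KO and -1.25 in WT.

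Of 27 ER folding genes tested, 10 rose and 10 fell in KO, where 33.7% of all tested genes rose and 32.9% fell, and 7 rose and 9 fell in WT, where 31.7% rose and 31.1% fell. These counts are near the shares over all genes, and the list's medians were -0.02 in KO and -0.04 in WT. Hspa5, the ER Hsp70 BiP, rose by 0.60 in KO and 0.57 in WT, while Uggt1, which returns misfolded glycoproteins to the calnexin and calreticulin cycle, fell, at -0.77 and -0.83. Of the other 8 ABCB transporter genes, relatives of Tap1 and Tap2 by family, 1 rose and 6 fell in KO and 1 rose and 5 fell in WT, with medians of -0.76 and -0.63. The lowest was Abcb4, a phospholipid transporter, at -2.74 and -3.74. Of 12 cross-presentation genes, 7 rose and 1 fell in KO, and 5 rose and 2 fell in WT, with medians of 0.15 and 0.07. Cyba, an NADPH oxidase subunit, rose by 0.79 and 0.80.

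Of 16 genes for factors that act at class I promoters, 8 rose and 3 fell in KO, and 7 rose and 4 fell in WT. Of all tested genes, 33.7% rose and 32.9% fell in KO, and 31.7% rose and 31.1% fell in WT. The list's medians were 0.09 in KO and 0.15 in WT. Irf1, an interferon-induced activator of class I and Tap1 transcription, rose by 1.87 in KO and 2.17 in WT, and its response was smaller in KO by -0.30 (limma adjusted p = 2.81e-03). Rfx5, a DNA-binding partner of NLRC5, fell by 0.28 in KO (adjusted p = 3.62e-03) and was at 0.14 in WT (1.41e-01), a difference in response of -0.42 (1.77e-02). Irf1 and Rfx5 were the 2 of the 16 called with a smaller response in KO, and 3 were called with a larger one. Over all tested genes the shares were 3.24% and 5.37%. Ciita, the class II transactivator of the same protein family as NLRC5, rose by 0.85 in KO and 1.56 in WT and was lower in KO under DMXAA by -0.70 (adjusted p = 3.51e-02).

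**Figure D5:**
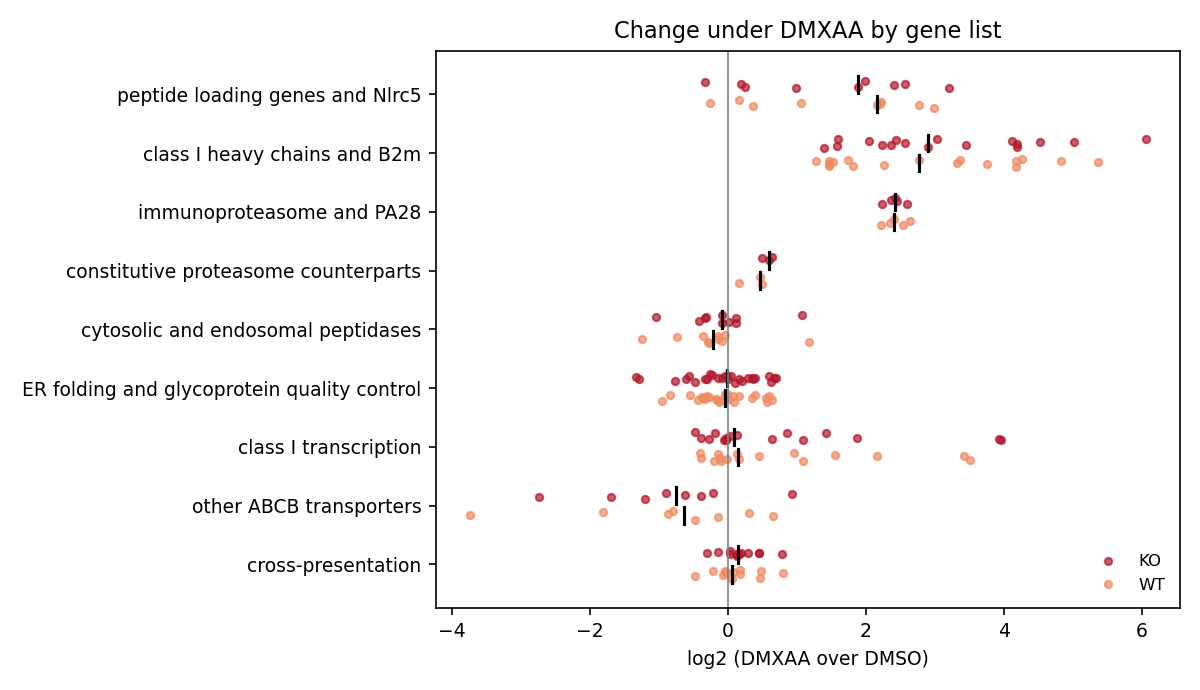
Log2 change under DMXAA over DMSO of each tested gene in the 9 members and the 8 lists, with 1 point per gene for KO and for WT and a bar at each median. The class I heavy chain and immunoproteasome genes lie wholly right of 0, while the members spread on both sides with Canx to the left.

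The genes whose pattern over the 12 libraries was most like that of 3 members were found among 11434 genes tested in every comparison, by the root mean square distance of log2 profiles centred on each gene's mean. For Tap1 the nearest included Ifih1 (0.0756), Epsti1 (0.0820) and Pnp (0.0897), and the nearest member was Tapbpl (0.320). For Nlrc5 they were H2-K1 (0.0978), Parp14 (0.101), Psme2b (0.105) and Apobec3 (0.109), and the nearest member was Tapbp (0.185). For Calr they included Atp5l (0.0310), Cwc25 (0.0360) and Mtch2 (0.0390), and the nearest member was Pdia3 (0.0964). In each case the genes named here lay nearer than any other member.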

How the data were processed

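RNA-seq was made from 12 libraries in 4 groups of 3. Per the submitters' processing notes, HISAT2 and featureCounts were used with mm10, without versions, annotation or strand setting. Deposited values are normalized counts, a signal the authors scaled within each of 4 tables of 6 libraries (DMSO, DMXAA, KO and WT). The authors' deposited comparison tables hold log2 fold changes, their errors and statistics as scores, and p-values. Columns were matched to samples by the library names in the labels, and 0 columns belonged to no sample. A library's smallest value served as the worth of 1 read, which made 100% of values whole within 0.01, and these reads give the depth, RPKM and ratios.

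The 4 comparisons of 2 groups were each fitted in their own table with limma 3.58.1 (eBayes with trend) on log2 (normalized count + 1), for genes with a mean of at least 10. Calls are at a two-sided Benjamini-Hochberg adjusted p below 0.05 over all tested genes. The interaction was fitted over 12 libraries, taken from the tables by treatment. The limma fits were tested on simulated data with known scaling factors, which cannot test the choice of scale. The members, lists and rule for names were chosen with earlier results of these data known. The rule names the 9 members, up to 4 genes with the smallest p in a comparison in each list, Psmb9, Psmb8, B2m, Hspa5, Irf1, Ciita, Rfx5, the 4 genes nearest in pattern, and Mgmt, Lyz2, Adgre1 and Csf1r as checks. Some genes the rule names are not reported here. H2-K1 in its list, H2-Ob, H2-Ab1 and the overlapping genes were named after their values were seen.

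Alternatives were pseudocounts of 0.5 and 10, no filter, a mean of at least 100, other scalings, edgeR 4.0.16 and DESeq2 1.42.0 on the reads, 1 edgeR fit over 12 libraries, a replicate block, and leaving out each library. EdgeR on the reads called 4175 genes higher and 4300 lower in KO under DMXAA, 3931 and 4072 in WT, 1306 and 1346 for KO over WT under DMXAA, and 888 and 1239 under DMSO. Of all symbols, 16065 (97.3%) had 1 position in GENCODE vM21 (GRCm38). Promoters are from RefSeq (GRCm38.p6).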

Additional observations from a re-analysis of the deposited data

Results flagged for a closer look

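The response to DMXAA differed between genotypes, by the limma interaction test, for 2 members. Tap2 had a response of log2 1.88 in KO and 2.16 in WT, a difference of -0.28 (SE 0.066, adjusted p = 1.58e-02). Tapbp had a response of 1.98 in KO and 2.20 in WT, a difference of -0.22 (SE 0.057, adjusted p = 2.71e-02).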

How the results depend on the processing

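The rise of Tap1, Tap2, Tapbp, Tapbpl, Erap1 and Nlrc5 and the fall of Canx under DMXAA held in both genotypes under every alternative run. With the same upper quartile, 6 members in KO and 7 in WT were called higher under DMXAA, in place of 8. With the same total per library, 6 were called higher in each genotype, and 2 in place of 1 were called lower. On that scale Calr changed sign at -0.20 in KO and -0.16 in WT, Pdia3 in KO at -0.14, Canx for KO over WT under DMXAA at -0.0069, Erap1 for KO over WT under DMSO at 0.0099, and Calr in the interaction at -0.0377. Leaving out each library in turn gave -0.0684 to 0.0274 for Erap1 under DMSO and -0.0021 to 0.0566 for Calr in the interaction. It gave 2 to 4 members lower in KO under DMXAA in place of 5, 1 to 3 members with a smaller response in KO, and 0 to 1 with a larger one. DESeq2 called 1 member with a larger response in KO, Tap1 (adjusted p = 1.66e-02). Single calls also changed for Nlrc5 for KO over WT under DMXAA without a filter (limma adjusted p = 5.05e-02) and Tap1 in the 12-library edgeR fit (5.23e-02). Calr was called lower in KO under DMXAA by DESeq2 (2.81e-02), in the 12-library edgeR fit (4.51e-02), with the same upper quartile (3.95e-02), with the same total (1.58e-02) and without WT DMXAA replicate 3 (1.95e-02). Under DMSO its call was lost without a filter (5.42e-02) and with the same total (6.91e-02). With the same total Tapbpl joined Tap2 and Tapbp, giving 3 members with a smaller response in KO. The cause of these changes was not tested. No label says that the numbers in the titles pair the samples. Deviations of same-numbered libraries correlated at -0.036 to 0.066. For DMXAA over DMSO in KO each library correlated best with its own number, at 0.043, 0.032 and 0.064. In the other comparisons not every library did. Correlations this small cannot decide whether samples were paired. Library names number the DMSO samples otherwise than the titles do, and no block by those numbers was fitted. With the replicate block, 1 member had a smaller response in KO, since Tapbp was lost (adjusted p = 5.13e-02), as were Nlrc5 under DMXAA (6.37e-02) and Calr under DMSO (8.05e-02). With 3 libraries per group, exact tests of a ratio cannot pass below 0.1.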
